A study of Rattus norvegicus with 24 samples.

Results

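The 10 endothelial cell genes Flt1, Kdr, Tek, Tie1, Pecam1, Cdh5, Emcn, Eng, Ramp2 and Vwf were followed in the rat urethra after simulated vaginal delivery (SVD), an injury made by pudendal nerve crush and vaginal distension. They were chosen by name from a table of 32883 genes. Of them, 9 had a row, and Pecam1 was not analysed here. The rule for choosing them names the genes and uses no threshold on a measured value. Urethras of 12-week-old female virgin Sprague-Dawley rats were collected 3d or 7d after SVD, and each rat had been injected into the aorta 1 h after the injury with saline, with allogeneic mesoangioblasts (MABsallo) or with allogeneic mesoangioblasts made to express VEGF (MABsallo-VEGF). The 6 groups of saline, MABsallo and MABsallo-VEGF at 3d and at 7d held 4 samples each, and every rat, saline controls included, had undergone SVD. In the sample titles the code starts with the day in each group but MABsallo at 3d, which has another number there. What that number marks is not explained in the titles. Mesoangioblasts (MABs) are vessel-associated progenitor cells, here grown from hind-limb muscle of other rats and sorted for alkaline phosphatase. For tracking, cells were given a lentiviral vector with the CMV promoter for eGFP and firefly luciferase, a fluorescent and a luminescent label, and a lentiviral vector in which the SFFV promoter drives VEGF165 together with a truncated CD34 was used for the VEGF cells. The labels give the genotype as WT for saline and MABsallo and as VEGF OE for MABsallo-VEGF, which refers to the injected cells, and they mark MABsallo-VEGF replicates 6 and 7 at 7d with the word recovery.

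Endothelial cells line every blood vessel and are told from other cells by the receptors and junction proteins that these genes encode. Kdr (VEGFR2) is the main signalling receptor for VEGF, and Flt1 (VEGFR1) binds VEGF tightly and limits what reaches Kdr. Tek (TIE2) is the angiopoietin receptor that steadies mature vessels, and Tie1 is its partner receptor. Cdh5 (VE-cadherin) and Pecam1 (CD31) hold endothelial cells to each other, Emcn (endomucin) is a mucin of capillary and venous endothelium, Eng (endoglin) is a co-receptor for BMP and TGF-beta ligands, Ramp2 carries the receptor for adrenomedullin to the cell surface, and Vwf is the clotting factor that endothelial cells store and release. In the urethra a dense bed of vessels lies under the epithelium and adds to closure.

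Promoter sequences are shown for Emcn, Tie1 and Eng, which had the lowest estimates against saline at 3d after MABsallo, and for Kdr, the gene called between 3d and 7d in saline. They are from RefSeq (build GRCr8), which held an entry for 5 of the 10 genes, the fifth being Flt1. Each runs from 250 bases before to 50 bases after the annotated start of the gene, 5′ to 3′ on the strand of the gene, and capitals mark the letters AGGAAG in either orientation, a form of the ETS factor core. The Emcn sequence lies at chr2:228564289-228564588 (plus strand), that of Tie1 at chr5:137304932-137305231 (minus strand), that of Eng at chr3:36332029-36332328 (plus strand) and that of Kdr at chr14:32571813-32572112 (plus strand).
Emcn: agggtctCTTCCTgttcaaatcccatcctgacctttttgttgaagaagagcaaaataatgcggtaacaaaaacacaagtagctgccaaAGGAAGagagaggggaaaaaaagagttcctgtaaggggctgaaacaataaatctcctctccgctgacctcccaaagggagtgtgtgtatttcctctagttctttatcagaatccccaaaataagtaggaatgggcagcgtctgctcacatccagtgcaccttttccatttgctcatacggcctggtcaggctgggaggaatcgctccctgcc
Tie1: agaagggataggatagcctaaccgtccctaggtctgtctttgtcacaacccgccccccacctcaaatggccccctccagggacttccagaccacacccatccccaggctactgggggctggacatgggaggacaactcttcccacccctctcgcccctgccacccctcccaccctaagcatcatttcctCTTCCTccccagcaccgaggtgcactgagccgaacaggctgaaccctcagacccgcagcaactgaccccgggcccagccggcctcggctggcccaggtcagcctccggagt
Eng: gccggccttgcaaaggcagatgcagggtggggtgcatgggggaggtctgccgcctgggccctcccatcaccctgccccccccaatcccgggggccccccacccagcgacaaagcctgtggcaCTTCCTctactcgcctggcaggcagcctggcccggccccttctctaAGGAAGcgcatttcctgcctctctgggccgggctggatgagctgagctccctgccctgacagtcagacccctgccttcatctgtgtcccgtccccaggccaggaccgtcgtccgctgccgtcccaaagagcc
Kdr: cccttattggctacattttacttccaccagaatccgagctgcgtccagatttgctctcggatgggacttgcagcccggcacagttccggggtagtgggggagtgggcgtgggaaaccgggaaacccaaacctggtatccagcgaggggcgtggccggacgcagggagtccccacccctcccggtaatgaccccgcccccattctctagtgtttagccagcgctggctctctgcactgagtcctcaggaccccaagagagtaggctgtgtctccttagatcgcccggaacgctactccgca
The letters AGGAAG were found in 4 of the 5 promoters, against 34.5% of all 33469 promoters of the same length. The Kdr sequence did not hold them, which says only that these letters are not in this window. Of the 6 motifs searched on both strands, GGAAGT was found in 4 of 5 (22.6% of all promoters), GGAAG in 5 of 5 (70.1%), GGAA in 5 of 5 (95.8%), CGGAAG in 0 of 5 (16.6%) and AGATAA in 0 of 5 (11.6%). The GGAA forms overlap one another, and AGGAAG was set in capitals after these counts were seen.

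Expression was measured from 3ʹ mRNA libraries and is given as the normalized gene count, the reads of a gene divided by the DESeq2 size factor of the sample. Samples had 2170695 to 10166052 reads on genes (median 5246798), and at 3d the cell-treated samples had the fewest. The 9 genes had 41 to 1118 reads in every sample. In each of the 36 pairs of libraries within groups the reads differed beyond counting error (chi-square divided by its degrees of freedom 9.0 to 121.4). Saline 3d replicate 6 and MABsallo-VEGF 3d replicate 4 stood apart. The RNA with the highest sum over the 24 samples was listed under the name of the rat mitochondrial genome. It took 12.1 to 20.7% of the counts in the 7 other cell-treated samples of 3d and 0.269 to 2.11% in 15 other samples. Its share was 7.31% in saline 3d replicate 6 and 3.46% in MABsallo-VEGF 3d replicate 4. The correlations and most of the tests that involve these libraries are given with and without them. These libraries were picked out from these same data. Leaving out samples that differ from their own group can by itself widen differences between groups and add calls. Results without them are therefore not an independent check. In a whole urethra, fewer endothelial cells and less RNA per endothelial cell cannot be told apart.

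Averaged over the 24 samples, the level of a gene ranged from 547 normalized counts for Tek to 2063 for Ramp2, and levels are compared here between groups and not between genes. Each of the 9 genes was read in each of the 24 samples. When the 6 groups were ranked by mean for each gene, the ranges of neighbouring groups overlapped in 44 of 45 pairs, the exception being Kdr in saline at 3d above MABsallo-VEGF at 7d. MABsallo at 3d had the lowest mean of the 6 groups for Flt1, Emcn, Ramp2, Tie1 and Eng. MABsallo-VEGF at 7d had the highest for Flt1, Emcn, Ramp2 and Eng. The spread within a group was wide, with a coefficient of variation of up to 89.2% for Vwf and 70.5% for Emcn.

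**Figure D1:**
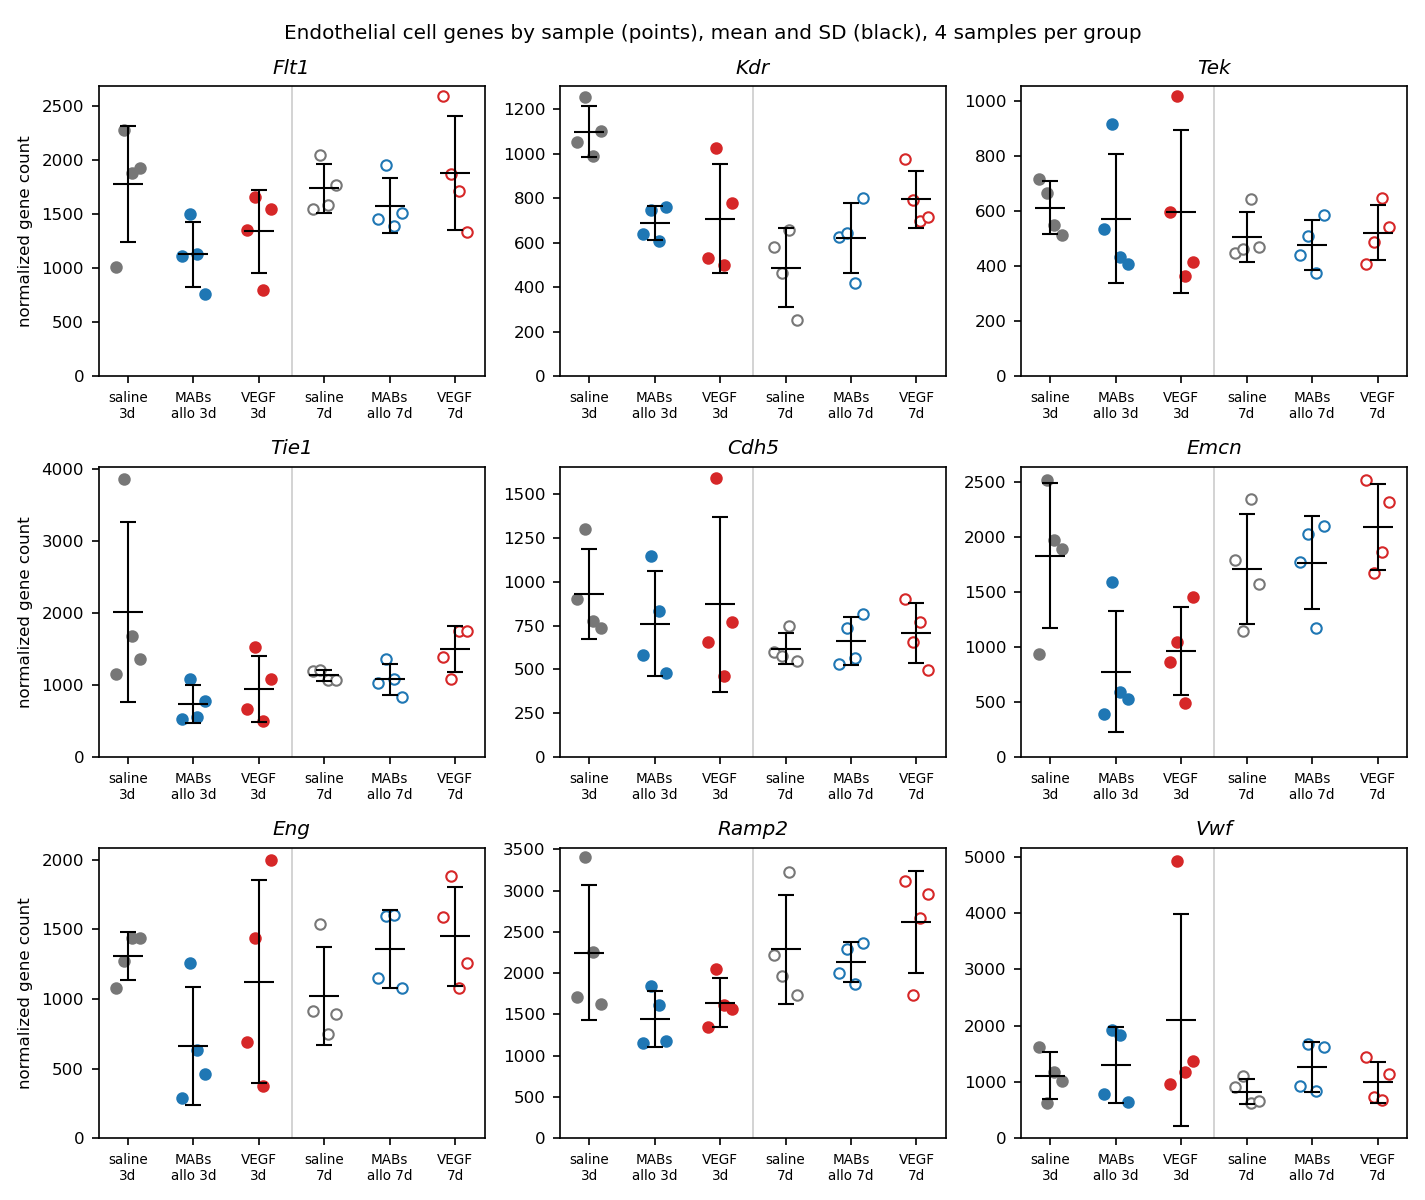
Normalized gene count (vertical axis, from 0) of the 9 endothelial genes in saline, MABsallo and MABsallo-VEGF urethras at 3d (filled points) and 7d (open points). Points are samples, long bars are means and whiskers are SD (n = 4). The lowest Kdr value of saline at 3d, 990, lies above the highest of saline at 7d, 656, and Vwf in 1 MABsallo-VEGF sample of 3d reaches 4917.

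Among the VEGF receptors, Flt1 had 1129 ± 304 normalized counts (SD, n = 4) in MABsallo and 1342 ± 382 in MABsallo-VEGF at 3d, with 1779 ± 539 in saline. At 7d the same groups had 1582 ± 255, 1880 ± 529 and 1742 ± 228. Kdr had 639, 750, 609 and 759 in the MABsallo samples of 3d, 530, 1025, 499 and 779 in MABsallo-VEGF and 1054, 1254, 990 and 1101 in saline. Each MABsallo sample lay below each saline sample, and MABsallo-VEGF replicate 2 lay among the saline samples. At 7d Kdr had 626, 642, 420 and 801 in MABsallo, 976, 790, 698 and 716 in MABsallo-VEGF and 582, 463, 656 and 252 in saline, so that saline passed from the highest group at 3d to the lowest at 7d.

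Of the angiopoietin receptors, Tek had means of 477 (MABsallo 7d) to 612 (saline 3d) and overlapping ranges between every pair of neighbouring groups. Tie1 at 3d had 1154, 3853, 1683 and 1365 in saline, 533, 1089, 554 and 787 in MABsallo and 665, 1534, 504 and 1086 in MABsallo-VEGF. Each MABsallo sample lay below each saline sample, while MABsallo-VEGF replicate 2 lay within the saline range, whose top was the 3853 of replicate 8. At 7d Tie1 had 1138 ± 74.5 in saline, 1081 ± 219 in MABsallo and 1495 ± 318 in MABsallo-VEGF, and the ranges overlapped.

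Of the junction and surface genes, Cdh5 ran from 618 ± 88.9 (saline 7d) to 928 ± 256 (saline 3d). Emcn at 3d had 940, 2524, 1976 and 1890 in saline, 398, 1592, 591 and 532 in MABsallo and 870, 1050, 489 and 1460 in MABsallo-VEGF. The low saline value was that of replicate 6, the high MABsallo value that of replicate 2 and the high MABsallo-VEGF value that of replicate 4. At 7d Emcn had 1714 ± 498 in saline, 1770 ± 420 in MABsallo and 2094 ± 393 in MABsallo-VEGF. Eng at 3d had 1081, 1274, 1437 and 1439 in saline, 291, 1258, 637 and 461 in MABsallo and 692, 1434, 378 and 1995 in MABsallo-VEGF. The saline samples were close to each other, while the MABsallo-VEGF samples ran from below to above them. At 7d the Eng means were 1023 ± 352 in saline, 1357 ± 282 in MABsallo and 1450 ± 355 in MABsallo-VEGF. Ramp2 had 1448 ± 338 in MABsallo, 1642 ± 295 in MABsallo-VEGF and 2250 ± 818 in saline at 3d, and 2134 ± 239, 2618 ± 620 and 2288 ± 660 at 7d. Vwf had 788, 1920, 1837 and 640 in MABsallo and 957, 4917, 1186 and 1371 in MABsallo-VEGF at 3d, with 1625, 631, 1183 and 1013 in saline, and the ranges of the 3 groups overlapped.

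The genes tended to be high or low together in a sample. At 3d, MABsallo replicate 2 was the highest of its group for 8 of the 9 genes and MABsallo-VEGF replicate 2 for 7 of 9, while MABsallo-VEGF replicate 3 was the lowest of its group for 7 of 9. Across the 36 pairs of genes the median Pearson correlation of log2 values over the 24 samples was 0.41 (range -0.08 to 0.81), and 33 pairs were above 0. After the mean of each group was subtracted it was 0.48 (0.14 to 0.73), and 36 pairs were above 0. Emcn and Ramp2 were the most alike (r = 0.81 over 24 samples) and Emcn and Vwf the least (r = -0.08). With the 2 libraries that stood apart left out the median was 0.41 (-0.06 to 0.83, with 34 pairs above 0), and 0.52 (0.16 to 0.78) after group means were subtracted. These correlations share libraries, depth and scaling and are descriptions.

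**Figure D2:**
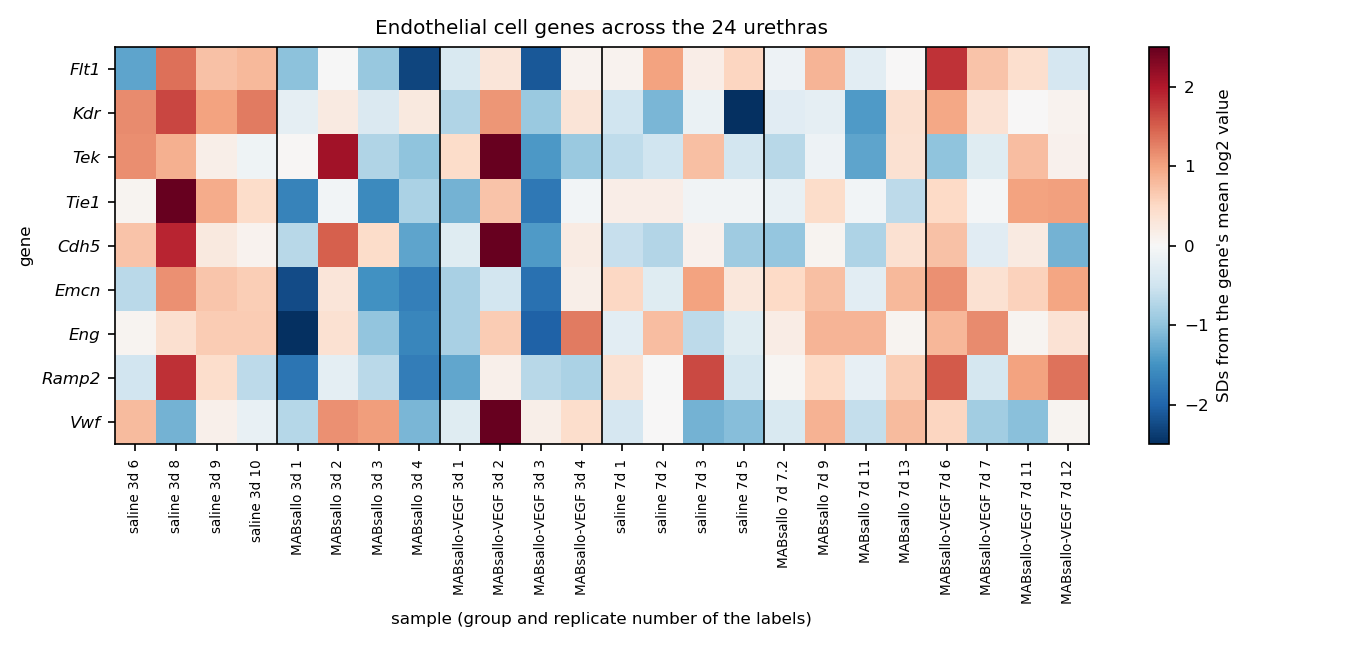
Each cell gives, for 1 of the 9 endothelial genes (rows) in 1 of the 24 urethras (columns, by group and replicate number of the labels), the distance of the log2 value from the mean of that gene in SDs, with colours held at 2.5 either way. MABsallo samples 1, 3 and 4 and MABsallo-VEGF samples 1 and 3 of 3d are blue for most genes, and the replicate 2 column of both cell groups at 3d is mostly red.

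Injection of VEGF-expressing rather than plain MABs was compared at both days to ask whether the VEGF transgene went with a change of the endothelial genes. At 3d, 8 of the 9 genes had a higher estimate after MABsallo-VEGF, and none was called. The largest log2 fold changes were those of Eng (0.70, a ratio of 1.62 with a 95% interval of 0.904 to 2.91), Vwf (0.53, ratio 1.44, 0.765 to 2.71) and Emcn (0.43, ratio 1.35, 0.789 to 2.30). Kdr, the VEGF receptor, was at -0.02 (ratio 0.988, 0.674 to 1.45). The median of the 9 log2 fold changes was 0.24, beside -0.03 for all genes tested. The test was limma, on log2 of the normalized count plus 1, which understates changes of low genes, in 1 fit of the 6 groups over the 16287 genes with a mean of at least 2 normalized counts, and a gene was called at a log2 fold change beyond 1 together with a Benjamini-Hochberg adjusted p under 0.05. Across those genes 0.00614% were called in this comparison (1 gene, no member). Adjusted p from limma was 0.851 to 1 for the 9 genes, 0 of them had an unadjusted p below 0.05 against 999 of all genes, and DESeq2 and edgeR called 0 of the 9 as well. The ranges of the groups overlapped for each of the 9 genes, and for 1.63% of all genes they did not.

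The direction of these small differences rested on the samples and the weighting. Kdr turned to a positive value with DESeq2, edgeR, scaling to the same total and quantile normalization, which made it 9 of 9 higher, whereas with sample quality weights 1 of 9 was higher and the median was -0.06. Without the 2 libraries that stood apart, 8 of 9 were higher with a median of 0.18, and Eng was at 0.33 instead of 0.70. The 95% interval was narrowest for Ramp2 (-0.31 to 0.70) and widest for Vwf (-0.39 to 1.44).

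**Figure D3:**
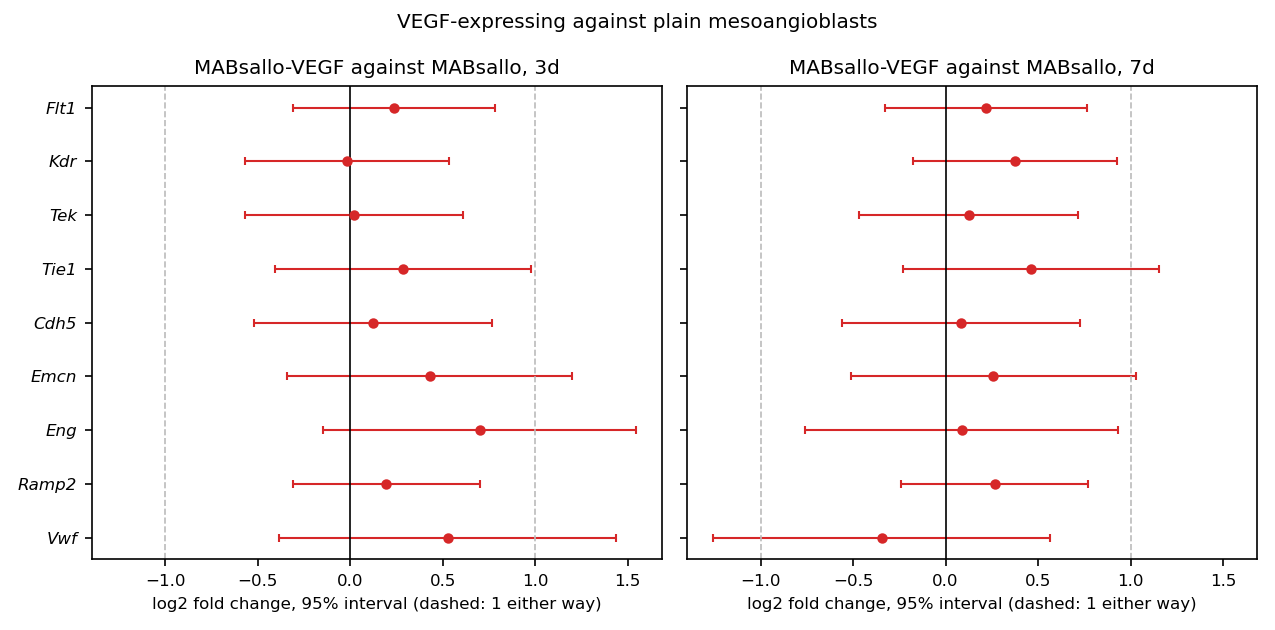
Log2 fold change of MABsallo-VEGF over MABsallo (horizontal axis) for each endothelial gene at 3d (left) and 7d (right), as points with 95% intervals from limma, 4 samples a group. Every interval spans 0, and Eng at 3d has the highest estimate, 0.70.

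At 7d, 8 of the 9 genes again had a higher estimate after MABsallo-VEGF, with Tie1 at 0.46 (ratio 1.38, 95% interval 0.853 to 2.23), Kdr at 0.38 (1.30, 0.886 to 1.90) and Ramp2 at 0.27 (1.20, 0.847 to 1.71) in front. Vwf was at -0.35 (0.787, 0.418 to 1.48). The median was 0.22 beside -0.02 for all genes. No gene was called, of the 9 or of all (0.00%), adjusted p from limma was 1 for each of the 9, and 0 of 9 against 452 of all genes had an unadjusted p below 0.05. DESeq2 called 0 of the 9 and 4 of all genes, and edgeR called 0 of both. Group ranges overlapped for 9 of 9 genes, and for 1.84% of all genes they did not. The 2 days draw on separate rats, and the difference between them was itself tested. It was largest for Vwf (0.87, 95% interval -0.42 to 2.16), Eng (0.61, -0.58 to 1.81) and Kdr (-0.39, -1.17 to 0.39). For the 9 genes 0 were called (0.00614% of all genes), adjusted p from limma was 0.948 to 0.997, and 0 of 9 against 831 of all genes had an unadjusted p below 0.05. DESeq2 and edgeR called 0 of all genes. Without the 2 libraries that stood apart the difference was 0.96 for Vwf, 0.25 for Eng and -0.46 for Kdr. Of all genes 0 were called there. Of the MABsallo-VEGF samples of 7d, the 2 labelled recovery were both above the other 2 for Flt1 (2597 and 1871 against 1719 and 1333), Kdr (976 and 790 against 698 and 716) and Eng (1585 and 1880 against 1080 and 1255). They were both below them for Tek (406 and 488 against 645 and 542) and Tie1 (1393 and 1090 against 1744 and 1753), and for the remaining 4 genes the values overlapped. With 2 samples a side these are values with no test.

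Against saline at 3d, 2 of the 9 endothelial genes were called as lower after plain MABs. Emcn fell by 1.37 on the log2 scale (SE 0.37, adjusted p = 0.0196 from limma), to 0.387 of the saline level, and Tie1 fell by 1.33 (SE 0.33, adjusted p = 0.0142 from limma), to 0.397. Of all genes 12.3% were called, 2.86% as lower. Of the called genes 76.7% were higher in MABsallo, a share of 52.0% after scaling to the same total and 56.2% after quantile normalization. Eng, at -1.18 (SE 0.41, adjusted p = 0.0526 from limma), missed the threshold, and it was called with a pseudocount of 5, the same total or quantile normalization, each of which gave 3 of 9. Kdr was at -0.67, Flt1 at -0.64 and Ramp2 at -0.60, each with an unadjusted p below 0.05 but an adjusted p of 0.0864 to 0.101 from limma. In limma 6 of the 9 genes and 5122 of all genes (31.4%) had an unadjusted p below 0.05. Cdh5 was at -0.33, Tek at -0.16 and Vwf at 0.13. The estimate was thus lower for 8 of 9 genes (9 of 9 after scaling to the same total), with a median of -0.64 beside 0.07 for all genes. Kdr and Tie1 were the 2 of 9 genes whose groups did not overlap, which held for 14.7% of all genes.

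Without the 2 libraries that stood apart, Emcn was at -1.66 (adjusted p = 0.00258 from limma), Tie1 at -1.54 (0.00344) and Eng at -1.27 (0.0294), and 3 of 9 were called beside 2951 of all genes. The count of 2 fell to 0 without saline replicate 8 or without MABsallo replicate 1, to 1 without saline replicate 9 or MABsallo replicate 3, and to 0 in a fit of these groups alone. Relative to the median of all genes, which scaling to the same total moved from 0.07 to -0.19 and quantile normalization to -0.14, the median of the 9 genes was at -0.70 on the deposited scale, -0.72 with the same total and -0.59 with quantiles.

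After MABsallo-VEGF, too, 8 of 9 genes had lower estimates than in saline, and none was called with the 24 samples. Tie1 was at -1.05 against saline (SE 0.33, adjusted p = 0.124 from limma), Emcn at -0.94 (SE 0.37, 0.180) and Kdr at -0.69 (SE 0.27, 0.170), while Vwf was at 0.66 (SE 0.44, 0.452). Of all genes 0.0307% were called. The median was -0.41 beside 0.04 for all genes, and 3 of 9 genes had an unadjusted p below 0.05 against 2923 of all genes. DESeq2 and edgeR called 0 of the 9 too. The groups did not overlap for 651 of the 16287 genes tested (4.0%) and for 0 of the 9. Without the 2 libraries that stood apart Emcn fell by 1.46 (adjusted p = 0.0126 from limma) and Tie1 fell by 1.37 (0.0160), so that 2 of 9 were called beside 2213 of all genes, as these 2 were with sample quality weights beside 1497. The 2 comparisons with saline share the saline samples, and the difference between both cell groups is the comparison given above.

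**Figure D4:**
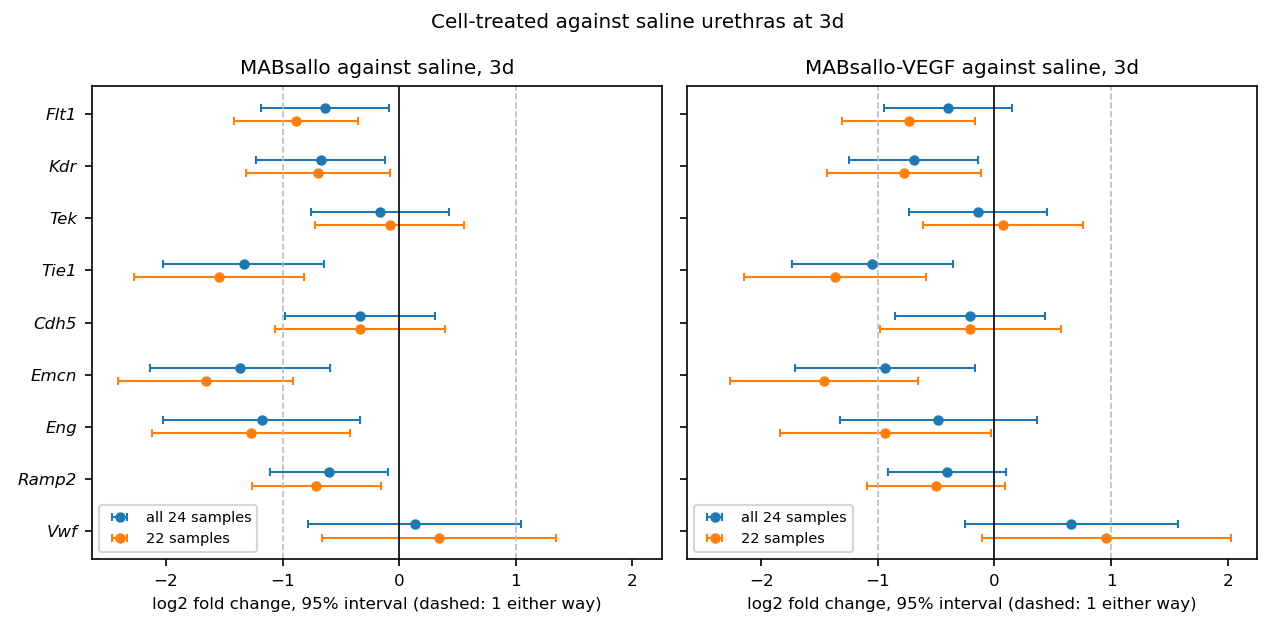
Log2 fold change at 3d (horizontal axis) of MABsallo (left) and MABsallo-VEGF (right) over saline for each endothelial gene, with 95% intervals from limma, in all 24 samples (blue) and in the 22 without saline 3d replicate 6 and MABsallo-VEGF 3d replicate 4 (orange). Emcn and Tie1 lie lowest in both panels, and Emcn moves from -0.94 to -1.46 on the right without those libraries.

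At 7d no endothelial gene passed the test against saline in either cell group. After MABsallo, 5 of 9 genes had higher and 4 lower estimates, between -0.14 (Flt1) and 0.58 (Vwf), with a median of 0.06 beside 0.02 for all genes. None of the 9 and none of all genes (0.00%) was called by limma, DESeq2 or edgeR, and 0 of 9 against 1014 of all genes had an unadjusted p below 0.05. After MABsallo-VEGF, 9 of 9 had higher estimates (7 of 9 after scaling to the same total), with a median of 0.24 beside 0.01. Kdr had the highest estimate, 0.78 (ratio 1.71, 95% interval 1.17 to 2.51), with the 4 MABsallo-VEGF samples at 698 to 976 above the 4 saline samples at 252 to 656. Its unadjusted p fell below 0.05 while its adjusted p was 0.605 from limma, and so it was not called. For 6.04% of all genes the groups did not overlap, as for Kdr, the 1 of 9. No gene of all was called by limma (0.00%) or edgeR, and DESeq2 called 26, none of the 9, with 1033 genes at an unadjusted p below 0.05 in limma.

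Time was compared within each treatment. In saline, Kdr was 2.38-fold higher at 3d than at 7d (log2 fold change 1.25, SE 0.27, adjusted p = 0.0156 from limma), and the groups did not overlap. It was the 1 of 9 genes called, and 3.19% of all genes were called, 2.59% as higher at 3d. The groups did not overlap for 10.6% of all genes. Tie1 was at 0.65 and Cdh5 at 0.56 in the same direction without passing the test, 7 of 9 genes had higher estimates at 3d (8 of 9 with quantile normalization, DESeq2 or edgeR), and Emcn, Flt1 and Ramp2 lay within 0.06 of 0. The median was 0.39 beside 0.05 for all genes. Without the 2 libraries that stood apart 9 of 9 genes had higher estimates at 3d, with a median of 0.35 beside 0.02 for all genes. Tie1 was then at 0.86, Emcn at 0.35, Flt1 at 0.23 and Ramp2 at 0.06. Kdr was at 1.27 with an adjusted p of 0.0621 from limma, and 0 of 9 were called beside 31 of all genes. The call of Kdr was lost as well without saline 3d replicate 6, without saline 7d replicate 5 or with the saline groups fitted alone.

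In cell-treated urethras Emcn was lower at 3d than at 7d. In MABsallo, the log2 fold change of 3d over 7d was -1.37 for Emcn (SE 0.37, adjusted p = 0.00763 from limma) and -1.22 for Eng (SE 0.41, adjusted p = 0.0264 from limma). These 2 of 9 were called, and 23.0% of all genes were called, 6.05% as lower at 3d. Ramp2, at -0.58 (adjusted p = 0.0741 from limma), was the 1 gene of 9 whose groups did not overlap, which held for 27.0% of all genes. In MABsallo-VEGF, the log2 fold change of Emcn was -1.20 (SE 0.37, adjusted p = 0.0256 from limma) with no overlap of the groups, and -1.43 (adjusted p = 0.00555 from limma) without the 2 libraries that stood apart. It was the 1 of 9 called beside 15.3% of all genes, 2.24% as lower. The groups did not overlap for 21.8% of all genes. Tie1 at -0.76, Ramp2 at -0.65 and Eng at -0.61 did not pass there. The estimate was lower at 3d for 6 of 9 genes in both cell groups (9 of 9 and 7 of 9 after scaling to the same total), with medians of -0.52 and -0.50 beside 0.06 and 0.05 for all genes. Whether the course over time differed from that in saline was not tested. The 3d samples of MABsallo and MABsallo-VEGF enter these comparisons and those with saline alike, so the lower values of Emcn in them are not separate evidence. In MABsallo 1 gene stayed called without MABsallo 3d replicate 1 or 4 or without MABsallo 7d replicate 9 or 11. In MABsallo-VEGF 0 were called without 3d replicate 1 or 3 or without 7d replicate 6 or 12, and 2 without 3d replicate 2.

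The wider endothelial programme was described with lists of genes known for these cells. Of 28 other pan-endothelial genes 27 were tested. At 3d after MABsallo 24 of the 27 had lower estimates than in saline (median -0.96 beside 0.07 for all genes), 7 were called as lower and 1 as higher, against 2.86% of all genes called as lower. Chosen here after their values were seen, the 7 were Notch4 (-1.70), a Notch receptor of endothelium, Aplnr (-1.73), the apelin receptor, Plvap (-1.55), which forms the diaphragms of fenestrated vessels, Rasip1 (-1.34), needed for vessel lumens, the tight junction gene Cldn5 (-1.18), the adhesion gene Esam (-1.08) and Clec14a (-1.03). The gene called as higher was Cd34 (3.31, adjusted p = 0.0273 from limma), a marker of vessels and of progenitor cells whose truncated form is also made by the VEGF vector. Cd34 had 469, 1373, 803 and 174 normalized counts after MABsallo and 249, 783, 373 and 57.9 after MABsallo-VEGF at 3d, and 15.7 to 771 in saline, where replicate 6 had the 771. In the 22 samples without the libraries that stood apart its log2 fold change was 4.57 (adjusted p = 0.000209 from limma). There 10 of the 27 genes were called as lower, with a median of -1.08. Of all 16281 genes tested in those samples 2951 were called, 75.9% of them as higher. After MABsallo-VEGF 24 of the 27 also had lower estimates than in saline at 3d, with 0 called (0.0307% of all genes). Their median was -0.59 beside 0.04 for all genes. In the 22 samples 4 were called as lower and 1 as higher (median -0.80). Beside them 2213 of all genes were called, 83.9% of them as higher. At 7d Cd34 had 3.15 to 18.6 in the 12 samples. In the 24 samples the call of Cd34 was for MABsallo against saline. The study names the vector with truncated CD34 for the VEGF cells. Whether vector transcripts are counted on Cd34 in any sample was not tested.

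Between the cell groups, 21 of these 27 genes had higher estimates after MABsallo-VEGF at 3d (median 0.37) and 23 at 7d (median 0.31), and 0 were called at either day. Of the 9 genes that mark tip cells, the leading cells of vessel sprouts, 6 had higher estimates at 3d and 6 at 7d (medians 0.11 and 0.23), with 0 called. Of the 11 VEGF and angiopoietin ligands and co-receptors, 10 had higher estimates at 3d and 5 at 7d (medians 0.36 and -0.14), with 0 called. Vegfa was the 1 lower at 3d, with 2002, 1565, 2262 and 1334 normalized counts after MABsallo and 1352, 1167, 1292 and 619 after MABsallo-VEGF, the 619 being replicate 4. The samples of both groups overlapped, and the log2 fold change was -0.73 (SE 0.26, adjusted p = 0.662 from limma), and -0.47 (adjusted p = 1 from limma) without the 2 libraries that stood apart. Of 7 lymphatic endothelial genes, 5 had higher estimates at 3d and 3 at 7d (medians 0.58 and -0.14), with 0 called. Of 4 cytokine-activated endothelial genes, 4 had higher estimates at 3d and 0 at 7d (medians 0.34 and -0.67), with 0 called. Without the 2 libraries that stood apart the numbers higher at 3d were 21 of 27 pan-endothelial (median 0.23) and 6 of 9 tip cell genes (0.09). They were 9 of 11 for ligand and co-receptor (0.43), 6 of 7 for lymphatic (0.47) and 4 of 4 for cytokine-activated genes (0.28), with 0 called.

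Estimates for markers of other cell types were described between the cell groups too, with 0 genes of these lists called at either day. At 3d, 9 of 9 macrophage genes (median 1.15) and 6 of 6 fibroblast genes (0.68) had higher estimates after MABsallo-VEGF and 6 of 6 striated muscle genes (-0.55) lower ones. Without the 2 libraries that stood apart these were 9 of 9 higher (1.08), 5 of 6 higher (0.36) and 6 of 6 lower (-0.26). At 7d, 9 of 9 macrophage genes (-0.74) and 8 of 8 adipocyte genes (-4.48) had lower estimates and 6 of 6 striated muscle genes (0.26) higher ones. Pericyte genes were higher in 5 of 9 at 3d (0.09) and 7 of 9 at 7d (0.37). Without those 2 libraries they were higher in 4 of 9 at 3d (-0.00025). Erythroid genes were lower in 5 of 5 at 3d (-0.69, and -1.65 without those 2 libraries) and higher in 5 of 5 at 7d (0.37). The part of these cell types in the endothelial estimates was not tested.

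Markers of other cell types also differed from saline at 3d. Between MABsallo and saline 12.3% of all genes were called, 2.86% as lower. After MABsallo, 9 of 9 macrophage genes had lower estimates than in saline, 4 of them called (median -1.77), and their summed level was 1456 to 14388 against 13849 to 26948 in saline and 4937 to 23528 after MABsallo-VEGF. No macrophage marker was at 0 in any sample. Of 6 fibroblast genes tested, 6 were lower and 2 called (median -1.44), with sums of 56304 to 304450 against 342793 to 517564. Of 9 pericyte genes 7 were lower, 1 called as lower and 1 as higher (median -0.48), with sums of 7178 to 10692 against 8670 to 13877, and Notch3, the one called as higher, was at 0 in some saline samples. Striated muscle genes ran the other way, with 6 of 6 higher and 1 called (median 1.38). Squamous and urothelial, platelet and smooth muscle genes had medians of 0.76, 1.22 and 0.30, and adipocyte and erythroid genes of -1.73 and -0.40. Some platelet genes were near 0 in saline at 3d, with means of 1.77 for Ppbp and 0.861 for Gp6. Without the 2 libraries that stood apart the medians of these 5 lists were 1.02, 0.59, 0.26, -2.15 and -1.18, in the same order. Platelet genes were then higher in 3 of 5 and erythroid genes lower in 5 of 5. The tip cell, lymphatic and cytokine-activated endothelial lists had medians of -0.34, -0.56 and -0.80, with 0 of 9, 3 of 7 and 1 of 4 called as lower. The VEGF and angiopoietin genes had a median of -0.28 with 0 of 11 called, and ribosomal protein genes one of -0.12. With both libraries that stood apart left out the medians were -1.92 for macrophage genes and -1.56 for fibroblast genes (5 of 6 called as lower). They were -0.51 for pericyte genes and 0.96 for striated muscle genes (0 called), and -0.26, -0.86 and -0.87 for the tip cell, lymphatic and cytokine-activated lists. Of all genes 2951 were called there, 75.9% of them as higher. The 9 endothelial genes together summed to 6005 to 12019 normalized counts after MABsallo, 6296 to 16277 after MABsallo-VEGF and 10196 to 17188 in saline at 3d (11616 to 17188 without replicate 6), and their median of -0.64 lay within the span of these lists. The part of the other cell types, and of the share taken by the RNA with the highest sum over the 24 samples, in the lower endothelial values was not tested.

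**Figure D5:**
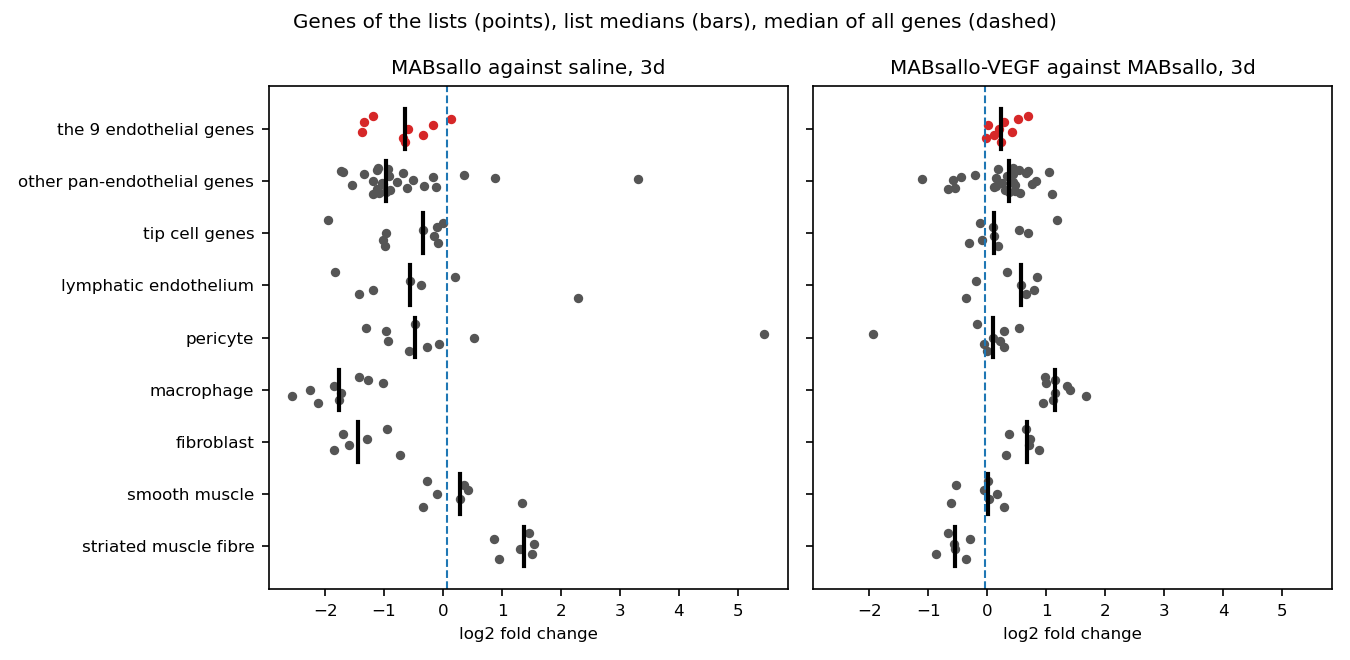
Log2 fold change (horizontal axis) of single genes (points) in the 9 endothelial genes (red) and in lists of other genes (grey), with list medians (bars) and the median of all genes (dashed), for MABsallo over saline (left) and MABsallo-VEGF over MABsallo (right) at 3d. On the left the medians of the endothelial, macrophage and fibroblast lists lie at -0.64, -1.77 and -1.44 and that of striated muscle at 1.38.

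The genes most like the endothelial set were found by the correlation of their log2 values with the mean standardized value of the 9 genes over the 24 samples, among 11160 genes of a mean of at least 50 (median r = -0.04). They were Adamts2 (r = 0.83), which trims procollagen, Chsy1 (0.82), which builds chondroitin chains, Col18a1 (0.82), a collagen of vessel basement membranes, 1 gene listed by a clone name (0.81), the chaperone Fkbp9 (0.81), Adgrl4 (0.80), an adhesion receptor of endothelium, the membrane protein gene Emp1 (0.80) and the hyaluronan synthase Has1 (0.79). In the 22 samples left without the libraries that stood apart their r was 0.80 to 0.84, and 7 of the 8 were again among the 8 highest. These values share the libraries and their scaling and are given as a description with no test.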

How the data were processed

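Urethral RNA of 24 rat samples was read from the 3′ ends of mRNA (QuantSeq, single reads). The authors removed adapters (fastq-mcf), aligned to Rnor6.0 (HISAT2), dropped reads of several loci and counted reads per gene (HT-seq). Their deposited signal values are gene counts divided by a DESeq2 size factor per sample, called normalized counts here. Each deposited value was a whole multiple of the value of 1 read (100% within 0.01 read), worth 1.67 to 9.23 normalized counts, so reads were recovered (2170695 to 10166052 per sample) for the count tests. Reads carry no molecular identifiers in the sources used here, and the strand setting of the counting is not given in them.

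log2(value + 1) of the 16287 genes with a mean of at least 2 was fitted with limma 3.58.1 (trend) in R 4.3.3 over 6 groups, with Benjamini-Hochberg adjustment, and calls needed a log2 fold change beyond 1 and an adjusted p under 0.05, as in the study. Correlations, promoters and figures were made with Python 3.11.15 (pandas 2.3.3, numpy 2.4.6, matplotlib 3.10.9). Alternatives were DESeq2 1.42.0 and edgeR 4.0.16 on recovered reads, a pseudocount of 5, no filter or a mean of at least 10, the same total, quantile normalization, sample quality weights, only the groups compared, a replicate block, 22 samples and leaving out each sample. On the recovered reads edgeR called 0 genes and DESeq2 0 genes between the cell groups at 3d. The scripts were tested on simulated data. Groups came from the labels. The study's methods give 4 urethral samples a group, and the labels do not tie samples to animals. The main limma p-values weigh each difference against the spread of samples within groups, estimated over the 6 groups together.

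The members and lists were chosen with earlier results of these data known. Named genes were the members, Vegfa, genes of the lists called between the cell groups (none), and the 8 genes most correlated with the mean member value. Other named genes were chosen after their values were seen.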

Additional observations from a re-analysis of the deposited data

Results flagged for a closer look

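Dixon's test was applied to the 54 sets of 4 samples given by 9 genes and 6 groups, and 3 had a sample far from the others. Chance alone flags about 1 in 20 such sets. Emcn in MABsallo replicate 2 at 3d had 1592 normalized counts, while the other samples of the group had 398 to 591. Tek in saline replicate 3 at 7d had 643.0 against 446 to 469. Vwf in MABsallo-VEGF replicate 2 at 3d had 4917 against 957 to 1371. Both 3d samples were also the highest of their group for most of the 9 genes.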

How the results depend on the processing

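The number of endothelial genes called between the cell groups stayed at 0 under each alternative, at both days and for the difference between the days. Against saline at 3d, the 2 genes called after MABsallo were 0 when only those groups were fitted, 3 (Eng added) with a pseudocount of 5, the same total, quantile normalization or without the 2 libraries that stood apart, and 0 to 3 with 1 sample left out. After MABsallo-VEGF the 0 became 2 with sample quality weights, 2 without those 2 libraries and 0 to 2 with 1 sample left out (2 without saline replicate 6, 1 without MABsallo-VEGF replicate 4). Between 3d and 7d, the 1 gene called in saline was 0 with only the groups compared, 0 without those 2 libraries and 0 to 1 with 1 sample left out. In MABsallo, 2 became 1 with sample quality weights and 1 to 2 with 1 sample left out, and in MABsallo-VEGF 1 became 3 with these weights and 0 to 2 with 1 sample left out. The cause was not tested for any of these. With 1 sample left out, the median log2 fold change of the 9 genes ran from 0.01 to 0.47 (3d) and 0.16 to 0.30 (7d) between the cell groups, and from -0.73 to -0.50 for MABsallo against saline at 3d.

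Between the cell groups at 3d, sample quality weights turned Flt1 to -0.011, Cdh5 to -0.30, Emcn to -0.063, Tek to -0.23, Tie1 to -0.15, Vwf to -0.0032 and Eng to -0.023, and Kdr turned to 0.027 with DESeq2, 0.060 with edgeR, 0.022 with the same total and 0.0082 with quantile normalization. With 1 sample left out Kdr ran from -0.22 to 0.13, Cdh5 from -0.22 to 0.37 and Tek from -0.27 to 0.27 at 3d, and Cdh5 from -0.043 to 0.24 and Eng from -0.049 to 0.22 at 7d.

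Calls over all genes moved more. For MABsallo-VEGF against saline at 3d there were 5, and 397 with DESeq2, 181 with a pseudocount of 5, 1497 with weights and 2213 without the 2 libraries. For MABsallo against saline at 3d there were 1997, and 5 with only those groups. For saline 3d against 7d there were 520, and 1386 with DESeq2, 988 with edgeR, 1852 with weights, 31 without the 2 libraries and 0 with only the groups. Called genes higher at 3d than at 7d made up 73.7% in MABsallo (59.2% with the same total, 54.2% with quantiles) and 85.4% in MABsallo-VEGF (74.9% and 67.9%).

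MABsallo and MABsallo-VEGF at 3d share replicate numbers. With the replicate number as a block, 0 endothelial genes were called and the median stayed at 0.24. Same-numbered samples correlated at 0.22, 0.15, 0.073 and 0.25, and 6 of 8 samples were best matched by their own number. Whether same-numbered samples form pairs was not tested. No label says what a number marks and 1 correlation was under 0.1, so the block was kept as an alternative.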
